A study of Mus musculus with 8 samples.

Results

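The genes described here encode the subunits of the respiratory chain and of ATP synthase, the machinery that makes ATP from NADH, succinate and oxygen on the inner mitochondrial membrane. They were chosen by name from the gene table: protein-coding rows whose symbol begins with Ndufa, Ndufb, Ndufc, Ndufs or Ndufv (complex I), Sdha to Sdhd (complex II), Uqcr or Cyc1 and mt-Cytb (complex III), Cox4i to Cox8 and mt-Co (complex IV), or Atp5 and mt-Atp (complex V), with mt-Nd for the mitochondrial subunits of complex I. Of 50686 rows, 99 fitted, 86 encoded in the nucleus and 13 in the mitochondrial genome. Complex I had 38 nuclear and 7 mitochondrial members, complex II 4 and 0, complex III 9 and 1, complex IV 18 and 3, and complex V 17 and 2. A further 19 rows with such names were left out, 8 assembly factors and 11 pseudogenes. The rule uses names and no measured value, but it was set with earlier results of these data known.

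RNA sequencing had been done on group 2 innate lymphoid cells (ILC2), lymphocytes without antigen receptors that make type 2 cytokines, taken from the thymus of plck-Id1 mice on the C57BL/6 strain. In these mice the proximal Lck promoter, active in early thymocytes, drives Id1, an inhibitor of E proteins, so every library, controls included, came from transgenic cells. The cells carried a MIGR1 retrovirus. Control virus encoded GFP; the other virus also encoded E47-ER, the E protein E47 (a product of Tcf3) fused to an estrogen receptor domain that 4-hydroxytamoxifen activates, and GFP-positive cells were sorted and grown with the cytokines IL-25, IL-33 and IL-7. All 4 groups (GFP or E47-ER, 4-hydroxytamoxifen for 4 or 16 h) had 2 libraries and all had the drug. Whether the 2 libraries of a group stand for different animals or cultures is not in the labels, and the p-values therefore reflect only how far libraries differ, which may be technical.

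Complex I takes electrons from NADH and complex II from succinate, complex III passes them to cytochrome c, and complex IV hands them to oxygen. Complexes I, III and IV pump protons, and complex V lets the protons back to make ATP. All of them but complex II combine subunits from both genomes: the mitochondrial genes are transcribed as long precursors inside the organelle, while each nuclear gene has a promoter of its own and its protein is imported.

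The mitochondrial members need their sequence beside their values, because part of the mitochondrial genome has copies in the nucleus. The first 60 bases of 4 of them are shown, with a nuclear copy for mt-Co3, mt-Co2 and mt-Co1, on GRCm38 (mt-Co3 at chrM:8607-8666 and Gm28437 at chr1:24613912-24613971 on the minus strand, mt-Co2 at chrM:7013-7072 and Gm28661 at chr1:24615506-24615565 minus, mt-Co1 at chrM:5328-5387 and Gm13340 at chr2:22589588-22589647 minus, mt-Cytb at chrM:14145-14204). Capitals mark the bases of a copy that differ from the mitochondrial gene.
mt-Co3: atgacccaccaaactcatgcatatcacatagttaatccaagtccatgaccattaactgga
Gm28437: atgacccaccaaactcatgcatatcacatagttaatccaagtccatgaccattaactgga
mt-Co2: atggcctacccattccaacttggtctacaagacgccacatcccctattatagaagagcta
Gm28661: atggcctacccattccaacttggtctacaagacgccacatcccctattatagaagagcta
mt-Co1: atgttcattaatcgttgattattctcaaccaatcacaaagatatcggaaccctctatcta
Gm13340: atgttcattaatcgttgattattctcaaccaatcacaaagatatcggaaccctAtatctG
mt-Cytb: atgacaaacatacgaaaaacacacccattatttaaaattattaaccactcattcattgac
The pseudogene Gm28437 had 0 mismatches to mt-Co3 over 783 aligned bases and Gm28661 had 0 to mt-Co2 over 681. Gm13340 had 37 mismatches to mt-Co1 over 1545, of which 2 lie in the stretch shown. It shared 27.47% of the 50-base words of mt-Co1, and another copy, Gm29216, shared 28.74%. mt-Cytb shared no 50-base word with any other annotated transcript.

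The counts of the mitochondrial members divided along the same line. Of the 50-base words of each transcript, all (100%) of those of mt-Co2, 99.86% of mt-Co3, 99.53% of mt-Atp6, 98.79% of mt-Nd4l and 97.99% of mt-Nd3 also stood in another annotated transcript, against 62.23% for mt-Nd4, 51.14% for mt-Co1, 8.19% for mt-Nd2, 7.606% for mt-Nd5 and 0.0% for mt-Nd1, mt-Atp8, mt-Nd6 and mt-Cytb. CPM are counts scaled to library size, and levels between genes are compared as CPM per kilobase of transcript (CPM per kb), the mean of the 7 libraries other than the second GFP library at 16 h. On that scale mt-Co1, the catalytic subunit of complex IV, was highest at 2975, with mt-Cytb, the cytochrome b of complex III, at 1911, mt-Nd1 at 1887 and mt-Atp8 at 1770. mt-Co2 and mt-Co3, the other core subunits of complex IV, stood at 14.6 and 10.4, mt-Nd3 at 16.1 and mt-Nd4l at 0.882, although they lie on the same genome. mt-Atp6, which overlaps mt-Atp8, had 438.2 with nearly all its words shared. How reads that fit several places were counted is not given in the sources used here, so the level of every member with shared words is uncertain and mt-Co2, mt-Co3, mt-Nd3 and mt-Nd4l are not read as low expression.

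**Figure D1:**
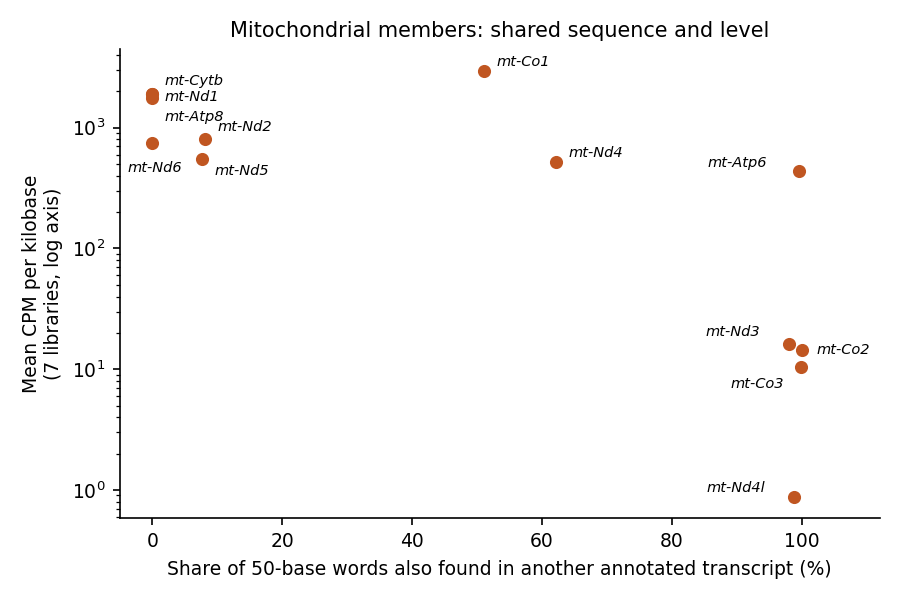
Each point is 1 of the 13 mitochondrial members: the x axis gives the share of its 50-base words found in another annotated transcript (%), the y axis its mean CPM per kb over 7 libraries on a log axis. The members with no shared words lie between 749.4 and 1911, and 4 of the 5 with over 90% shared lie at 16.1 or below.

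Among the nuclear members 1 had over 50% of its words shared, Atp5l (68.48%), 15 had 10 to 50% and 70 had under 10%, of which 50 had none. Some members also overlap another gene, and whether counting used strand is not given: Cox4i1 overlaps Emc8 on the opposite strand, Atp5j overlaps Gabpa, Ndufb2 overlaps Braf, and mt-Nd5 overlaps mt-Nd6.

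A filter on low counts kept 92 of the 99 members, 80 nuclear and 12 mitochondrial. The 7 that did not pass were mt-Nd4l (29 counts over all 8 libraries), Cox6a2 (45), Cox4i2 (44), Cox8b (a heart and muscle form, 10), Ndufa4l2 (3), and Cox7b2 and Cox8c (0 each). The nuclear members that passed ranged from 2.414 to 488.6 CPM per kb with a median of 118.1. Complex IV had a median of 201.5 over 13 members and complex V 191.0 over 17. The median of complex III was 102.4 (9 members), that of complex I 86.4 (37 members) and that of complex II 67.4 (4 members). Cox4i1, a regulatory subunit of complex IV, was the highest nuclear member at 488.6, next to Atp5b, the catalytic β subunit of ATP synthase, at 485.6 and Atp5e, its ε subunit, at 461.8. The ranges of these 3 over the 7 libraries overlapped.

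Where a subunit comes in several tissue forms, the cells used the general one. Cox6a1 had 196.6 to 269.0 CPM over the 7 libraries, whereas its heart and muscle form Cox6a2 had 0.128 to 0.6717. Cox4i1 had 340.9 to 422.8 CPM and Cox4i2, the lung form, 0.1057 to 0.6717. Cox7a2 stood at 125.2 to 141.2 CPM against 1.792 to 3.059 for Cox7a1, its heart and muscle form. Cox7a2l, listed with them, was higher than both at 196.7 to 227.1 CPM. Cox6b1 stood at 199.6 to 237.1 CPM and the testis form Cox6b2 at 1.797 to 2.529. Ndufa4 had 53.56 to 85.55 CPM, and its paralog Ndufa4l2 had 3 counts over all 8 libraries. Cox8a had 217.7 to 243.9 CPM and Cox7b 112.4 to 124.1, while Cox8c and Cox7b2, forms of the testis, had 0 counts. With 0 counts the upper limit is 3 counts over all libraries, for counting error only.

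Library totals ran from 8813782 to 18677675 counts, and the lowest was the second GFP library at 16 h. Tcf3 was at 67.64 to 87.6 CPM in GFP and 146.1 to 169.9 in E47-ER libraries, and Esr1, whose coding sequence is part of the fusion, at 0.2114 to 0.9321 and 43.81 to 54.49, as the labels say. All 12 ILC2 markers were above 1 CPM and sum to 25050 to 31590 CPM in GFP and 20920 to 22970 in E47-ER libraries. The 6 markers of NK cells and ILC1 sum to 21880 to 25800 CPM, nearly all of it Gzmb (21850 to 25760); Prf1 had 25.43 to 47.1 CPM, Klrb1c, Eomes and Tbx21 at most 0.1439, and Ncr1 was at 0. The 9 T cell markers, none of them at 0 in every library, sum to 60.06 to 83.75 CPM in GFP and 114.3 to 182.8 in E47-ER libraries, and 5 thymic epithelium markers to 5.121 to 9.055 and 10.3 to 22.7 with Foxn1 at 0. The part of these in the results that follow was not tested, and in bulk samples fewer cells of a type and less RNA per cell cannot be told apart.

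The summed level of the nuclear members was 9961 and 10180 CPM in the GFP libraries at 4 h, 9601 and 10290 in the E47-ER libraries at 4 h, 10640 and 20600 in the GFP libraries at 16 h, and 9939 and 9411 in the E47-ER libraries at 16 h. The second GFP library at 16 h thus stood apart from the other 7, whose values ran from 9411 to 10640. The mitochondrial members summed to 12360 and 13070, 12240 and 9549, 12260 and 12160, and 13420 and 12740 CPM in the same order. Here the second E47-ER library at 4 h was the lowest, and the second GFP library at 16 h lay within the others. The ratio of mitochondrial to nuclear sums was 1.241 and 1.284, 1.274 and 0.9282, 1.152 and 0.5904, and 1.351 and 1.354. Both E47-ER libraries at 16 h had a higher ratio than every other library, a description with no test.

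**Figure D2:**
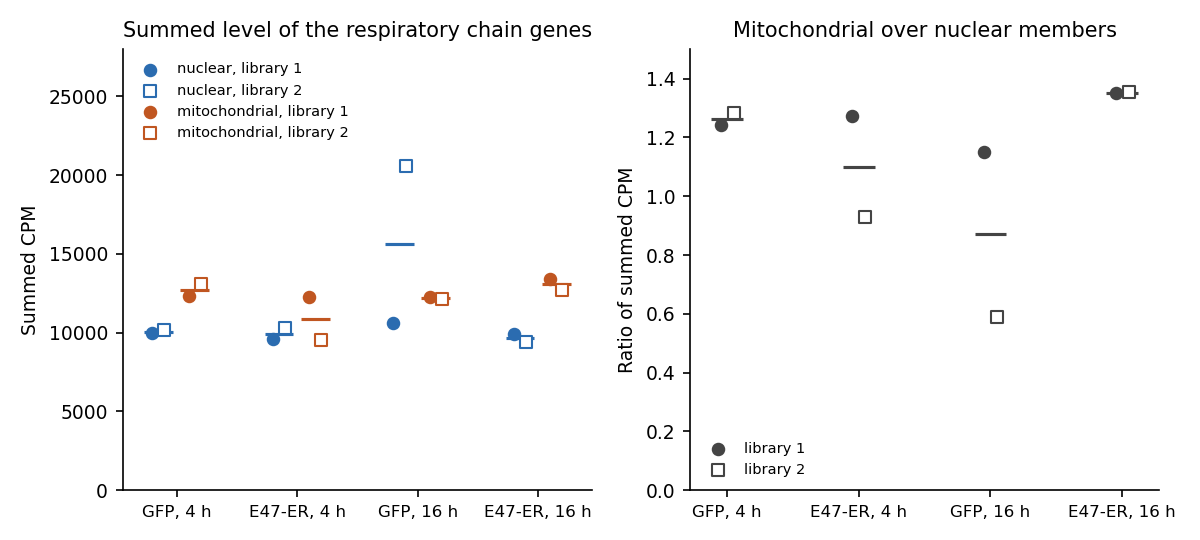
Left, summed CPM of the nuclear and mitochondrial members in each library (circle, library 1; square, library 2; line, mean of the group); right, the ratio of the mitochondrial to the nuclear sum. The nuclear sum of the second GFP library at 16 h is 20600 and those of the other 7 libraries are 9411 to 10640; the lowest mitochondrial sum is 9549.

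This library was the highest of the 8 for 73 of the 80 nuclear members tested (91.25%), for 6 of 12 mitochondrial members and for 34.89% of all 13644 genes tested, while 34.98% of all genes had their lowest value there. Against the mean of the other 3 GFP libraries on the log2 scale, the nuclear members had a median of 1.11 (74 of 80 above 0), the mitochondrial members 0.030 (6 of 12 above 0) and all genes -0.014. The difference went with transcript length. Nuclear members under 1000 bases had a median of 1.20 (52 of 52 above 0) and all genes of that length 0.71. From 1000 to 2000 bases the medians were 0.79 and 0.30, and from 2000 to 4000 bases 0.40 and -0.13. Across genes, which are not independent replicates, Spearman's rho of length and difference was -0.6411 over the 80 nuclear members and -0.5048 over all genes with a length. Over the 12 mitochondrial members it was -0.2587.

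Single genes show the same order. Atp5e, with a transcript of 421 bases, had 182.1 and 192.6 CPM with GFP at 4 h, 176.5 and 239.4 with E47-ER at 4 h, 218.1 and 902.1 with GFP at 16 h, and 178.4 and 173.8 with E47-ER at 16 h. The 902.1 is 4.136 times the value of the other GFP library at 16 h, the highest such ratio among the nuclear members. Sdha, the flavoprotein of complex II, with 2900 bases, had 178.4 and 176.7, 172.8 and 166.3, 189.3 and 159.1, and 170.9 and 166.7 CPM, so this library was its lowest. Uqcrc2 (a core protein of complex III, 1896 bases) had the lowest ratio of the 2 GFP libraries at 16 h, 0.6628. Ndufs1 (iron-sulfur subunit, 2625 bases), Atp5b, Cyc1 (cytochrome c1) and Atp5a1 (the α subunit) were the remaining nuclear members with a ratio under 1, while 49 of the 80 had a ratio over 2. Among the mitochondrial members it was 3.438 for mt-Co2, 2.854 for mt-Nd3, 2.333 for mt-Nd6 and 0.7093 for mt-Atp6.

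**Figure D3:**
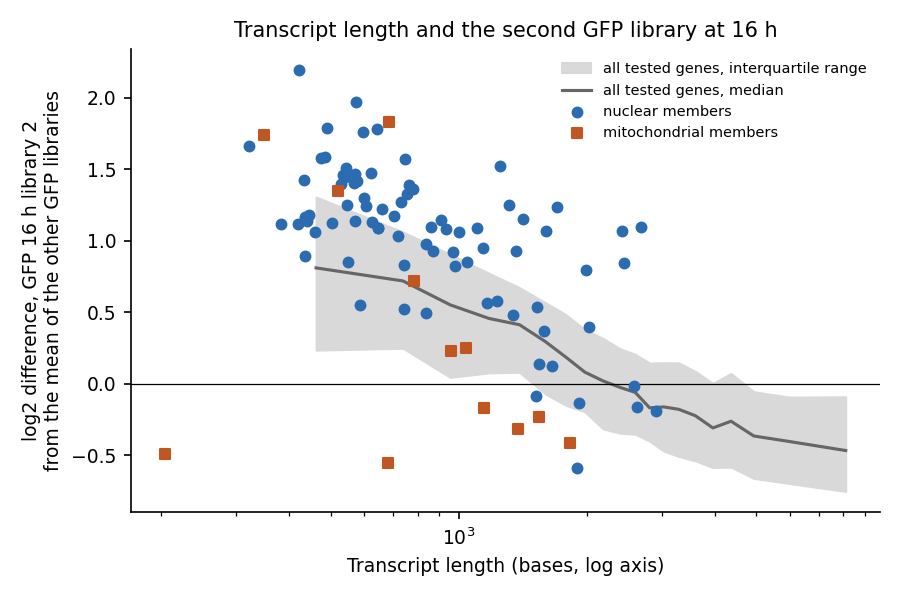
The y axis gives the log2 difference of the second GFP library at 16 h from the mean of the other GFP libraries, the x axis the transcript length in bases on a log axis; points are the 80 nuclear and 12 mitochondrial members tested, and the line and band are the median and interquartile range of all tested genes in 20 bins of length. All 52 nuclear members under 1000 bases lie above 0.

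The study asks what E47 changes in these cells, and the comparison of E47-ER with GFP addresses that at each time, with 2 libraries per group. At 4 h no member was called with all 8 libraries (edgeR quasi-likelihood test, Benjamini-Hochberg adjusted p under 0.05; 0 of 92, 0 at an unadjusted p under 0.05, 0 by DESeq2 and 0 by limma voom), where 0.286% of all genes tested were called. The median log2 fold change was -0.017 over the 80 nuclear members, from -0.51 to 0.16. Over the 12 mitochondrial members it was -0.23, with 11 of 12 below 0. Over all genes it was -0.0043. The 5 smallest p-values were those of Atp5s (-0.51 ± 0.28 SE, edgeR adjusted p = 0.9951), mt-Nd1, mt-Cytb, mt-Nd2 (-0.31 ± 0.19, 0.9999) and mt-Nd4 (-0.32 ± 0.21, 0.9999).

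The mitochondrial values at 4 h rest on 1 library. mt-Nd1, a core membrane subunit of complex I, had 1881 and 2023 CPM with GFP at 4 h against 1770 and 1410 with E47-ER, with a log2 fold change of -0.30 ± 0.17 (SE, n = 2 against 2; edgeR adjusted p = 0.9999). mt-Cytb had 2350 and 2316 CPM in GFP and 2174 and 1643 in E47-ER cells. Both E47-ER libraries lay below both GFP libraries for 4 of 12 mitochondrial members, 28.75% of the nuclear members and 22.9% of all genes. Without the second E47-ER library at 4 h the mitochondrial median was -0.060 and without the first it was -0.44. Leaving out the second GFP library at 16 h, which is not part of this comparison but of its shared estimate of spread, gave 0 members called of 94, with 3 at an unadjusted p under 0.05, where 4.33% of all genes were called. The smallest p-values were then those of mt-Nd1 (-0.29 ± 0.093 SE, edgeR adjusted p = 0.08345), mt-Cytb (-0.29 ± 0.10, 0.1524) Ndufa4 (-0.24 ± 0.091, 0.1565), mt-Co1 (-0.17 ± 0.085, 0.3381) and Uqcrfs1 (-0.15 ± 0.078, 0.3429).

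At 16 h the direction of the nuclear members was one-sided and its size depended on the second GFP library. With all 8 libraries 0 of 92 members were called by edgeR, and 1.59% of all genes were called. The median log2 fold change of the nuclear members was -0.77, with 79 of 80 below 0 and Uqcrc2 (0.32) the exception. All genes with transcripts under 1000 bases had a median of -0.50, and all genes -0.0057. By complex the nuclear medians were -0.77 (I), -0.48 (II), -0.78 (III), -0.80 (IV) and -0.71 (V). The mitochondrial median was 0.016, with 6 of 12 below 0. The smallest p-values were those of Ndufa4 (-1.15 ± 0.30 SE, edgeR adjusted p = 0.1105), Ndufs7 (-0.83 ± 0.24, 0.1322), Uqcr11 (-0.97 ± 0.29, 0.1322), Cox6a1 (-1.22 ± 0.37, 0.134) and Ndufa5 (-1.41 ± 0.43, 0.1357).

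Without that library 4 of 94 members were called, all of them lower in E47-ER cells, where 8.92% of all genes were called and 4.53% were called lower; the share of the members is thus near the background. The nuclear median was -0.15, with 72 of 82 below 0, against -0.099 for all genes under 1000 bases. By complex it was -0.16 (I), -0.14 (II), -0.18 (III), -0.14 (IV) and -0.13 (V). The mitochondrial median was 0.061 with 6 of 12 below 0. In this fit the GFP group at 16 h had 1 library, assumed to vary like the other groups. Both E47-ER libraries lay below the remaining GFP library for 78.75% of the 80 nuclear members and 39.2% of all genes, and below both GFP libraries for 75% and 26.56%. Of the 12 mitochondrial members, 5 had both E47-ER libraries above both GFP libraries (41.67%, against 27.78% of all genes). For 2 they lay below (16.67%, against 26.56%). Without the second GFP library 6 were above (50.0%, against 40.53% of all genes) and 2 below (16.67%, against 39.2%).

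The 4 members were counted under complexes I, IV, III and V. Ndufa4, a small subunit once assigned to complex I and now to complex IV, had 80.73 and 85.55 CPM with GFP at 4 h, 72.63 and 67.71 with E47-ER at 4 h, 81.68 and 173.1 with GFP at 16 h and 60.5 and 53.56 with E47-ER at 16 h. At both times each E47-ER library lay below each GFP library. Without the second GFP library at 16 h its log2 fold change at 16 h was -0.53 ± 0.11 (SE; edgeR adjusted p = 0.00322). Cox6a1, a subunit of complex IV, had 240.9 and 248.5, 213.4 and 251.8, 269.0 and 697.6, and 216.7 and 196.6 CPM in the same order, and fell by 0.39 ± 0.10 (SE; edgeR adjusted p = 0.01882). At 4 h its groups overlapped. Uqcr11, the smallest subunit of complex III, had 62.33 and 63.46, 58.75 and 65.7, 74.5 and 151.7, and 60.23 and 54.37 CPM, and its log2 fold change was -0.39 ± 0.11 (SE; edgeR adjusted p = 0.03294). Its E47-ER libraries at 16 h were also below both GFP libraries at 4 h. Atp5b had 1010 and 957.1, 933.6 and 906.0, 1023 and 909.5, and 863.2 and 820.3 CPM, and its log2 fold change was -0.29 ± 0.091 (SE; edgeR adjusted p = 0.04963). It is the one of the 4 whose second GFP library at 16 h was not raised, and its E47-ER libraries at 16 h lay below every GFP library. Just outside the threshold was Ndufs7, an iron-sulfur subunit of complex I (-0.37 ± 0.12, edgeR adjusted p = 0.05095).

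**Figure D4:**
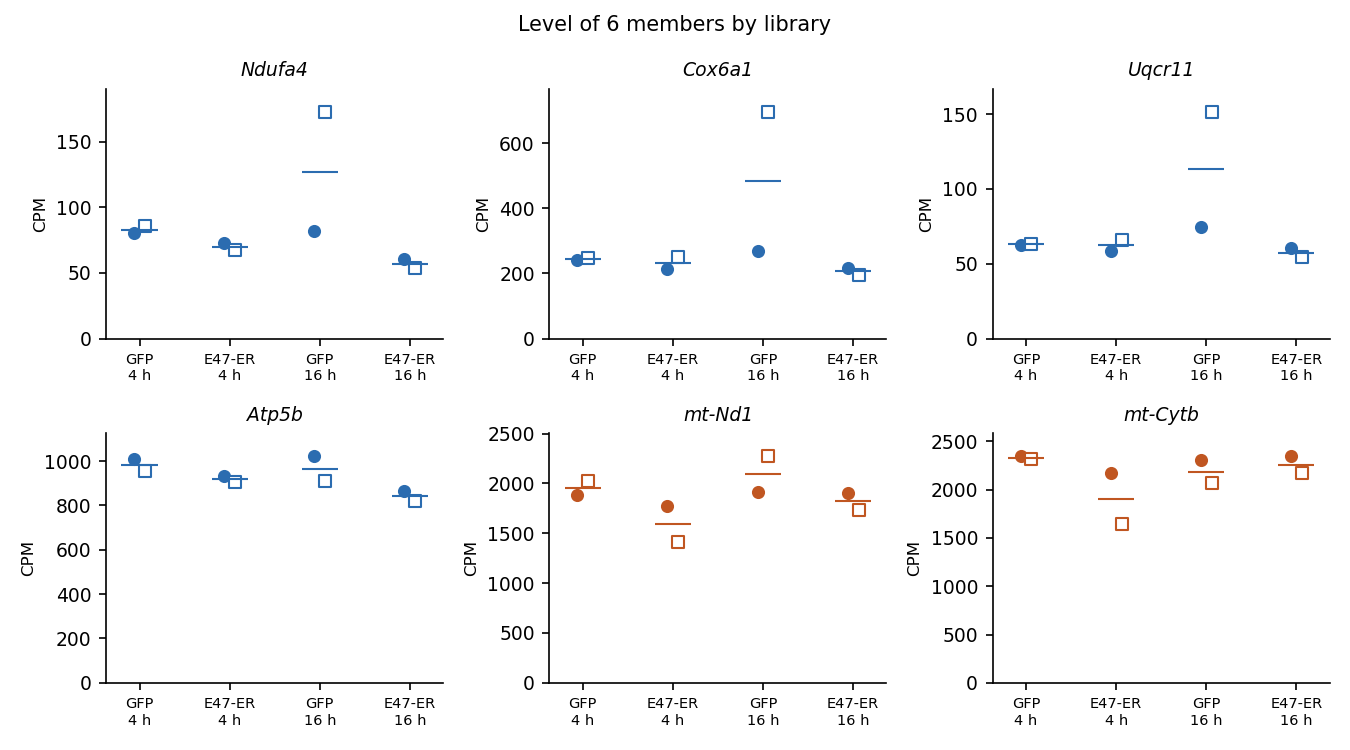
CPM of 6 members in each library (circle, library 1; square, library 2; line, mean of the group of 2). Ndufa4, Cox6a1 and Uqcr11 show the raised second GFP library at 16 h (173.1, 697.6 and 151.7 CPM), Atp5b does not (909.5), and mt-Nd1 and mt-Cytb are lowest in the second E47-ER library at 4 h (1410 and 1643).

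**Figure D5:**
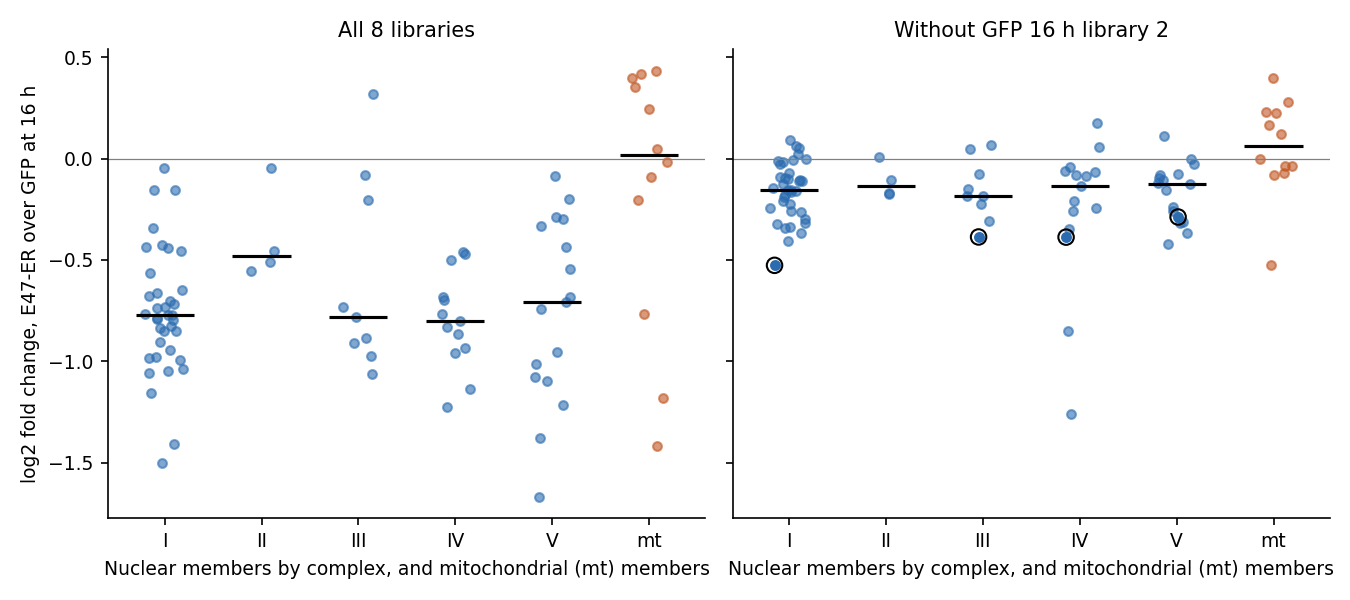
log2 fold change of E47-ER over GFP at 16 h for each member tested, by complex for the nuclear members and together for the mitochondrial (mt) members, with all 8 libraries and without the second GFP library at 16 h; bars are medians and circles mark the called members. The nuclear median moves from -0.77 to -0.15 and the mitochondrial median from 0.016 to 0.061.

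The spread of the named core subunits between libraries lay near that of the nuclear members as a whole. Over the 7 libraries other than the second GFP library at 16 h, the ratio of highest to lowest CPM was 1.121 for Sdhb, 1.14 for Sdha, 1.15 for Ndufs1, 1.16 for Ndufv1, 1.17 for Uqcrfs1 (the Rieske protein), 1.21 for Cyc1, 1.247 for Atp5b, 1.251 for Cox5a and 1.106 for Atp5a1. The median ratio was 1.195 over the nuclear members, 1.543 over the mitochondrial members and 1.397 over all genes tested. The largest among the nuclear members were those of the weakly expressed Atp5s (1.882) and Cox7a1 (1.707), and Ndufa4 followed (1.597).

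The difference between the effects at 16 h and 4 h called no member (0 of 92, 0 by DESeq2 and 0 by voom). Of all genes 0.0% were called. Its median was -0.74 for the nuclear members and 0.28 for the mitochondrial members, the second of which was 0.081 without the second E47-ER library at 4 h and 0.53 without the first. Atp5mpl (-1.53 ± 0.62 SE), Atp5e (-1.82 ± 0.74), mt-Nd4 (0.72 ± 0.29), Uqcr11 (-0.96 ± 0.40) and Atp5j2 (-1.21 ± 0.51) had the smallest p-values, each with an edgeR adjusted p of 0.6994. Without the second GFP library at 16 h 0 of 94 were called, 10 had an unadjusted p under 0.05, 0.0424% of all genes were called, and the medians were -0.14 and 0.32. The smallest p-values were then those of Atp5j2 (-0.37 ± 0.13 SE, edgeR adjusted p = 0.4426), Atp5mpl (-0.47 ± 0.16, 0.4426), Atp5e (-0.47 ± 0.17, 0.5085), Uqcr11 (-0.37 ± 0.15, 0.5085) and mt-Co1 (0.33 ± 0.13, 0.5257).

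From 4 to 16 h in GFP cells no member was called (0 of 92, 0 by DESeq2 and voom), and 0.0% of all genes were called. The median log2 fold changes were 0.69 for the nuclear and 0.0041 for the mitochondrial members. Without the second library at 16 h the medians were 0.10 and -0.024, with 0 of 94 called, 5 at an unadjusted p under 0.05 and 0.00707% of all genes called. Atp5j2 (0.29 ± 0.097 SE, edgeR adjusted p = 0.7526), Ndufa13 (0.25 ± 0.10, 0.7565), Cox5a (0.26 ± 0.11, 0.7685), Cox4i1 (0.22 ± 0.095, 0.7743) and Uqcr11 (0.24 ± 0.11, 0.7929) then had the smallest p-values. With all libraries these were Atp5j2 (1.14 ± 0.36), mt-Nd3 (1.36 ± 0.44), Ndufa13 (1.08 ± 0.36), Cox5a (0.79 ± 0.26) and Atp5e (1.58 ± 0.53), each with an edgeR adjusted p of 0.4998. This comparison shares its GFP libraries with those of E47-ER against GFP.

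From 4 to 16 h in E47-ER cells, a comparison without the library that stands apart, no member was called (0 of 92, 0 by DESeq2 and voom). Of all genes 0.0147% were called. The nuclear median was -0.028, and that of the mitochondrial members was 0.25, with 12 of 12 above 0; without the second E47-ER library at 4 h it was 0.13 and without the first 0.49. mt-Nd4 had 725.7 and 476.0 CPM at 4 h and 845.7 and 827.9 at 16 h, a log2 fold change of 0.48 ± 0.21 (SE; edgeR adjusted p = 0.9814). mt-Nd5 had 1040 and 745.5 at 4 h and 1210 and 1137 at 16 h (0.39 ± 0.20, edgeR adjusted p = 0.9995). For both genes the 16 h libraries lay above the 4 h libraries and the second library at 4 h was the lowest of its group. A smaller spread was estimated without the second GFP library at 16 h. Ndufa4 then had -0.31 ± 0.092 (SE; edgeR adjusted p = 0.06813), Atp5mpl -0.31 ± 0.10 (0.1012), mt-Nd5 0.38 ± 0.13 (0.1484), mt-Co1 0.20 ± 0.085 (0.2091) and mt-Cytb 0.23 ± 0.10 (0.2505).

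The number of members called depended on the library left out and on the method. DESeq2 on all 8 libraries called 24 members lower (23 nuclear) and 4.5% of all genes lower. edgeR without the filter on low counts called 50 lower (2.97% of all genes), and also 4 lower in the difference of effects (0.137%) and 31 higher in the GFP time comparison (0.962%). With the first GFP library at 16 h left out, so that the second stood alone for its group, 76 members were lower (24.4% of all genes), 71 lower in the difference of effects (17.5%) and 76 higher over time in GFP cells (21.4%). With the second left out and transcript length corrected for, 2 members were lower at 16 h, Ndufa4 and Cox6a1 (4.45% of all genes). A fit of the E47-ER libraries alone called Ndufa4 lower over time (3.1% of all genes).

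Other genes of the pathway were followed in 6 lists, and none of their members was called for E47-ER against GFP at 16 h with all 8 libraries. The calls that follow come from the fit without the second GFP library at 16 h, in which 8.92% of all genes were called and 4.53% were called lower. Of 43 assembly factors 2 were lower (4.651%), Ndufaf4 (complex I; -0.62 ± 0.16 SE, edgeR adjusted p = 0.01566) and Uqcc2 (complex III; -0.42 ± 0.13, 0.03974; -0.82 with all 8 libraries). The median of the assembly factors was -0.12, and -0.41 with all 8 libraries. A list of 17 genes held cytochrome c, ubiquinone synthesis and proteins that pass electrons towards ubiquinone (Etfa, Etfb, Etfdh, Dhodh and Gpd2). In it Coq8a, a kinase-like protein of ubiquinone synthesis, was higher, with a log2 fold change of 0.86 (1.19 with all 8 libraries). The median of these 17 genes was -0.23 (-0.22 with all 8 libraries). Of 78 mitochondrial ribosomal proteins 9 were lower (11.54%), among them Mrps28 (-0.81 ± 0.17, edgeR adjusted p = 0.00365) and Mrpl12 (-0.49 ± 0.12, 0.009179; -0.94 with all 8 libraries), and 1 was higher, Mrpl41 (0.48 ± 0.13, 0.01831; 0.035 with all 8 libraries). The median of that list was -0.21, with 71 of 78 below 0, and -0.52 with all 8 libraries. A list of 19 genes covered the copying and transcription of mitochondrial DNA and the handling of its RNA. In it Lrpprc, which stabilises mitochondrial mRNA, had a log2 fold change of -0.37 (-0.34 with all 8 libraries). The median of these 19 genes was -0.17 (-0.38 with all 8 libraries). The level of Lrpprc was 55.32 to 60.46 CPM in the 4 GFP libraries. With E47-ER it was 56.83 and 58.14 at 4 h, and 49.15 and 45.19 at 16 h. Of 17 tricarboxylic acid cycle genes 1 was lower, Suclg2 (-0.52 ± 0.15, edgeR adjusted p = 0.0301; -0.31 with all 8 libraries), and the median was -0.14 (-0.077 with all 8 libraries). Of 10 regulators tested 1 was lower, Myc, a transcription factor that acts on many nuclear genes of mitochondria, and the median was 0.015 (0.0022 with all 8 libraries). Myc had 101.9 and 117.7 CPM (GFP) against 68.79 and 57.28 (E47-ER) at 4 h, and 131.4 and 88.42 against 93.76 and 84.33 at 16 h. With all 8 libraries it was not called at either time, with a log2 fold change of -0.80 ± 0.20 at 4 h (SE; edgeR adjusted p = 0.3586) and -0.31 ± 0.20 at 16 h (0.3578). Without the second GFP library at 16 h these were -0.80 ± 0.099 (edgeR adjusted p = 1.026e-05) and -0.57 ± 0.12 (0.00256). With that library the groups at 16 h overlapped. From 4 to 16 h in E47-ER cells, Myc had a log2 fold change of 0.50 with all 8 libraries. Without the second GFP library at 16 h it was 0.48. Mrpl41 had 0.53 and 0.51 in the same order. Neither gene was called over time with all 8 libraries.

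The promoters of the nuclear members could be searched for 69 genes, from 250 bases before to 50 after the RefSeq start on GRCm38.p6, on both strands. GCGCATGC, the core of the site of NRF1, a regulator of respiratory genes, stood in 10 of them (14.49%) against 3.897% of 17423 other protein-coding genes. CCGGAAG, an ETS site of the kind GABP binds, stood in 16 (23.19% against 12.91%), and GCCATNTT, a YY1 site, in 17 (24.64% against 7.393%), 12 of which were among the 33 genes of complex I. The E-boxes, the kind of site E proteins bind, were at 6 genes for CAGCTG (8.696% against 17.48%) and at 14 for CAGGTG (20.29% against 22.08%). A match is a run of letters and not a site. The upstream sequence of the Cox6a1 and Uqcr11 promoters is shown because both genes were called at 16 h without the second GFP library and hold a whole motif upstream of the annotated starts, in capitals: the NRF1 motif on both strands, overlapping itself, for Cox6a1 (chr5:115348982-115349208, minus strand) and the ETS motif for Uqcr11 (chr10:80406831-80407071, minus strand). Nearer to the start or after it, in bases not shown, the window of Cox6a1 also held an ETS motif, that of Uqcr11 an NRF1 motif, and that of Atp5b a YY1 motif and a CAGCTG E-box; the window of Ndufa4, the remaining called member, held none of the 5 motifs.
Cox6a1: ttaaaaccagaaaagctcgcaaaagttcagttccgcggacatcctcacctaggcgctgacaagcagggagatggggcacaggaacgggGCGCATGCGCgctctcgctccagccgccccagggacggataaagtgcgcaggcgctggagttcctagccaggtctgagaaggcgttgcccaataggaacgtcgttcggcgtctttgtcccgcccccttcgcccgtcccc
Uqcr11: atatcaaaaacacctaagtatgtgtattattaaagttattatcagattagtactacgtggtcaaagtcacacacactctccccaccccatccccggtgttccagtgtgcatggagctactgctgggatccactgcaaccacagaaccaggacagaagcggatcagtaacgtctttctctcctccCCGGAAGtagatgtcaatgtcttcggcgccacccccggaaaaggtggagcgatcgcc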

How the data were processed

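Bulk RNA sequencing of total RNA gave 8 libraries in 4 groups of 2. The deposited values are raw counts per Ensembl gene, whole numbers as the authors deposited them, without normalization. The submitters' processing notes name the build mm10 and DESeq2, with no role or version; which aligner, counter, strand setting or annotation release was used is not given in the sources here. Of 50686 gene IDs, 50462 matched GENCODE M21 (GRCm38), which gave symbols, positions and lengths (median over a gene's protein-coding transcripts). The members and gene lists were chosen with earlier results of these data known.

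Counts were fitted in R 4.3.3 with edgeR 4.0.16 (quasi-likelihood, robust, TMM scaling, 1 mean per group, all 8 libraries) after filterByExpr with a minimum count of 10, which kept 13644 genes (14146 without the second GFP library at 16 h). Two-sided p-values were Benjamini-Hochberg adjusted over all genes within each of 5 comparisons and called under 0.05. SE is the log2 fold change over the square root of F. CPM are TMM-scaled. Totals were 8813782 to 18677675 counts, and small counts limit precision. The code was tested on simulated data. Alternatives were DESeq2 1.42.0, limma 3.58.1 voom with quality weights, other scalings, filters and groups, a replicate block, a length offset, and each library left out; leaving out the second GFP library at 16 h together with the length offset was added after seeing the data. The text names the 13 mitochondrial members, fixed core subunits and isoform pairs, called members by smallest adjusted p (otherwise those of smallest p), the 3 highest per genome, and up to 3 called genes per pathway list and comparison; other genes were chosen after their values were seen. The values of 1 fixed core subunit are not reported here.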

Additional observations from a re-analysis of the deposited data

How the results depend on the processing

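Of 376 values under alternative settings (counts of members called and class medians in 5 comparisons), 337 stayed within the spread between libraries or within 1.5 times the count, and 39 did not. This is a lenient measure. The spread used for nuclear medians was 0.332 and includes the second GFP library at 16 h. The SD of its group was 0.6562, and those of the other groups were 0.04172 to 0.08273. A count of 0 that stayed at 0 was also scored as unchanged. Whether libraries with the same replicate number share an animal or culture is not in the labels. The correlations between groups of the difference of the 2 libraries ran from -0.0901 to 0.202. With 1 such difference per group they cannot settle this. With a replicate block 0 members were called and the medians at 16 h were -0.715 (nuclear) and 0.020 (mitochondrial). With a length offset the nuclear and mitochondrial medians were -0.218 and 0.370 at 16 h, -0.248 and 0.531 for the difference of effects, and 0.242 and -0.241 over time in GFP cells; with the replicate block and the length offset together they were -0.211 and 0.390, -0.244 and 0.560, and 0.233 and -0.262. With the second GFP library at 16 h left out and the length offset, the nuclear medians were -0.074, -0.086 and 0.058 in the same order and 2 members were called lower at 16 h. DESeq2 called 24 lower at 16 h; without a filter on low counts 50 were lower at 16 h, 4 lower in the difference and 31 higher over time in GFP cells; with only the groups compared 1 was lower over time in E47-ER cells. The cause of these differences was not tested. With all rows of the mitochondrial chromosome the mean summed level was 15670 CPM (GFP) and 13465 (E47-ER) at 4 h, 16350 and 16175 at 16 h, against 12715, 10894, 12210 and 13080 for the members alone.

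Leaving out each library in turn gave the following ranges. At 4 h the mitochondrial median ran from -0.443 to -0.060. At 16 h the members called ran from 0 to 4 higher and from 0 to 76 lower, and the nuclear median from -1.153 to -0.154. In the difference of effects they were 0 to 5 higher and 0 to 71 lower, with a nuclear median of -1.182 to -0.141 and a mitochondrial median of 0.081 to 0.534. Over time in GFP cells 0 to 76 were higher and 0 to 3 lower, with a nuclear median of 0.105 to 1.111. Over time in E47-ER cells the mitochondrial median ran from 0.132 to 0.488. Both ends of the nuclear ranges came from leaving out a GFP library at 16 h. Both ends of the mitochondrial ranges came from leaving out an E47-ER library at 4 h. Over 19 alternatives the adjusted p at 16 h ran from 7.999e-11 to 0.5878 for Ndufa4, which was called in 5, and from 0.04963 to 0.8276 for Atp5b, called in 1. None of the 8 fold changes followed through every alternative reversed (Ndufa4, Cox6a1, Uqcr11 and Atp5b at 16 h, Ndufa4, mt-Nd1 and mt-Cytb at 4 h, and mt-Nd4 over time in E47-ER cells). Several of these were chosen for a call or a small p in the same data. The other members were not followed in this way, so this says little about them.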
